A study of Mus musculus with 4 samples.

Results

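The proteins of the cytosolic ribosome were followed at the mRNA level in mouse bone marrow-derived macrophages. A gene was taken as a member when its symbol begins with Rpl or Rps and a digit, or is Rplp0, Rplp1, Rplp2 or Rpsa. Rps6k kinases and pseudogenes were left out, as were genes whose probesets all carry several symbols. This gave 63 members among 19938 genes with a single-symbol probeset. Another 20 symbols of this kind stand only on probesets shared with other symbols and are not described one by one.

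The 4 arrays covered 4 groups of 1 array each: Stat6-/- macrophages with IL-4, Stat6-/- macrophages in medium, wild-type macrophages with IL-4 and wild-type macrophages in medium. The Stat6-/- cells came from the strain 4get/Stat6-/-, which carries the 4get reporter of IL-4 transcription beside the loss of Stat6, and the wild-type cells from BALB/c mice. Per the labels, bone marrow was cultured for 7 days in medium holding 10% supernatant of L929 cells, which supplies M-CSF. The cells then spent 24 h with or without IL-4 and were sorted for F4/80, a macrophage surface marker, to 99% purity. The unit of the IL-4 concentration is not settled, since the labels give it once as 10 µg/mL and once as 10 mg/mL. With 1 array per group there is no spread between replicates, no test was possible, and every difference below is a description of these 4 arrays. Effects of the reporter strain, of genotype and of the single cultures cannot be told apart.

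Ribosome proteins are encoded by abundant, short mRNAs, most of which begin with a run of pyrimidines, the 5′ terminal oligopyrimidine (TOP) tract, through which the mTOR kinase controls their translation. Their amounts are held close to those of ribosomal RNA, and proteins made in excess are degraded. Large subunit proteins (Rpl) surround the peptidyl transferase centre and the exit tunnel, small subunit proteins (Rps) surround the decoding site, and the P stalk (Rplp0, Rplp1, Rplp2) recruits translation factors. IL-4 acts on macrophages through its receptor and the transcription factor Stat6.

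Promoter sequences were examined because most members had a higher signal with IL-4 in both genotypes. RefSeq holds promoter windows, from 250 bases before to 50 after an annotated start, for 51 of the 63 members, 60 windows in all (build GRCm38.p6). The sequences printed here are 100 bases before and 20 after the start of the 4 members with the highest mean IL-4 difference over both genotypes, followed by the 3 with the lowest. They were chosen on these values, each from the gene's brightest probeset. The choice was among the large subunit, small subunit and P-stalk genes that had a window, and the most upstream start was taken. Each is written 5′ to 3′ on the gene's strand, and capitals mark matches to any motif listed after them.
Rps19, chr7:24884492-24884611, plus strand: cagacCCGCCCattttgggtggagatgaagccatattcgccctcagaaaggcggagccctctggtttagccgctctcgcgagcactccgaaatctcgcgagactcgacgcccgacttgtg
Rps28, chr17:33824543-33824662, minus strand: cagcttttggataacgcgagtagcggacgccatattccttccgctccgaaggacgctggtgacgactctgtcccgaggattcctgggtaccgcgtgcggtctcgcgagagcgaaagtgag
Rps13, chr7:116334171-116334290, minus strand: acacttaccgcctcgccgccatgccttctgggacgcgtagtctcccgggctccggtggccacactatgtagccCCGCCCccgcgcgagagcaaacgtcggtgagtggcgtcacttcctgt
Rps21, chr2:180257279-180257398, plus strand: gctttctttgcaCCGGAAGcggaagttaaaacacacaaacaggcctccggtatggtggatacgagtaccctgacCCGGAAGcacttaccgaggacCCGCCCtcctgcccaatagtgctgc
Rps6, chr4:86857348-86857467, minus strand: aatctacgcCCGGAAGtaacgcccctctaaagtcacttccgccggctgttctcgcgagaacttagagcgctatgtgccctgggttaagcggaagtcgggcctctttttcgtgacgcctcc
Rpl10, chrX:74270716-74270835, plus strand: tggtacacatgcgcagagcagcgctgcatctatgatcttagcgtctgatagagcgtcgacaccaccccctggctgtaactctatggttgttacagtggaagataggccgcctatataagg
Rpl4, chr9:64173287-64173406, plus strand: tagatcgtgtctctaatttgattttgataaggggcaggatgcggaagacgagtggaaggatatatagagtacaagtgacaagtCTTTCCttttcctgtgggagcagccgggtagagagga

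The motifs searched on either strand were the ETS factor core CCGGAAG, the Sp1 box GGGCGG, the E-box CACGTG bound by Myc, and the STAT6 site, which is TTC and GAA with 4 bases of any kind between them. The TATA box TATAAA was searched on the gene strand in the 50 bases before the start, and the pyrimidine run CTTTCC on the gene strand from 40 bases before to 40 after it. The ETS core was in 20 of 60 member windows (33.3%), against 8.86% of all 32851 windows, and the Sp1 box in 34 (56.7%), against 35.7%. The pyrimidine run was in 10 member windows (16.7%), against 3.69% of all. The STAT6 site was in 3 member windows (5%), against 6.95%, the E-box in 7 (11.7%), against 7.15%, and the TATA box in 0, against 2.63%. Among the sequences printed, that of Rps21 holds ETS cores and an Sp1 box, those of Rps19 and Rps13 an Sp1 box, that of Rps6 an ETS core and that of Rpl4 the pyrimidine run, while those of Rps28 and Rpl10 hold none of them. Matches are letters in a window and say nothing of binding.

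Values are RMA signals, a background-corrected and quantile-normalized intensity per probeset on the log2 scale, so that they give a gene's share among the others and not RNA per cell. Fewer cells of a kind and less RNA per cell cannot be told apart. Stat6 itself had signals of 4.25 and 4.54 on the Stat6-/- arrays with IL-4 and in medium, and of 6.68 and 7.34 on the wild-type arrays with IL-4 and in medium. All 8 macrophage markers lay above the floor of 2.52, the median of the single-symbol probesets, while the markers on the array for B cells, NK cells, mast cells and basophils were under it on all 4. The summed log2 signal of the macrophage markers was 76.5 and 77.0 on the Stat6-/- arrays with IL-4 and in medium, and 69.9 and 78.4 on the matching wild-type arrays. Of the other marker lists, 1 of 3 T cell, 1 of 5 neutrophil and 2 of 3 fibroblast markers reached the floor on at least 1 array, at no more than 3.41.

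Of the 63 members, 60 lay above the floor on all 4 arrays, and Rpl3l, Rpl10l and Rpl39l lay under it on all 4. Those 3 are paralogues known from striated muscle or testis, with signals between 1.08 and 1.74, and no difference is given for them. The 60 members comprised 30 large subunit genes, 21 small subunit genes, the 3 P-stalk genes, 5 paralogues or retrogenes and Rps19bp1. Rps19bp1 meets the symbol rule but encodes a protein that binds Rps19 and is no part of the ribosome. The median signal of all 63 was 8.82 and 8.59 on the Stat6-/- arrays with IL-4 and in medium, and 8.76 and 8.42 on the matching wild-type arrays. Probesets differ in affinity, so signals of different genes are not set against each other.

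**Figure D1:**
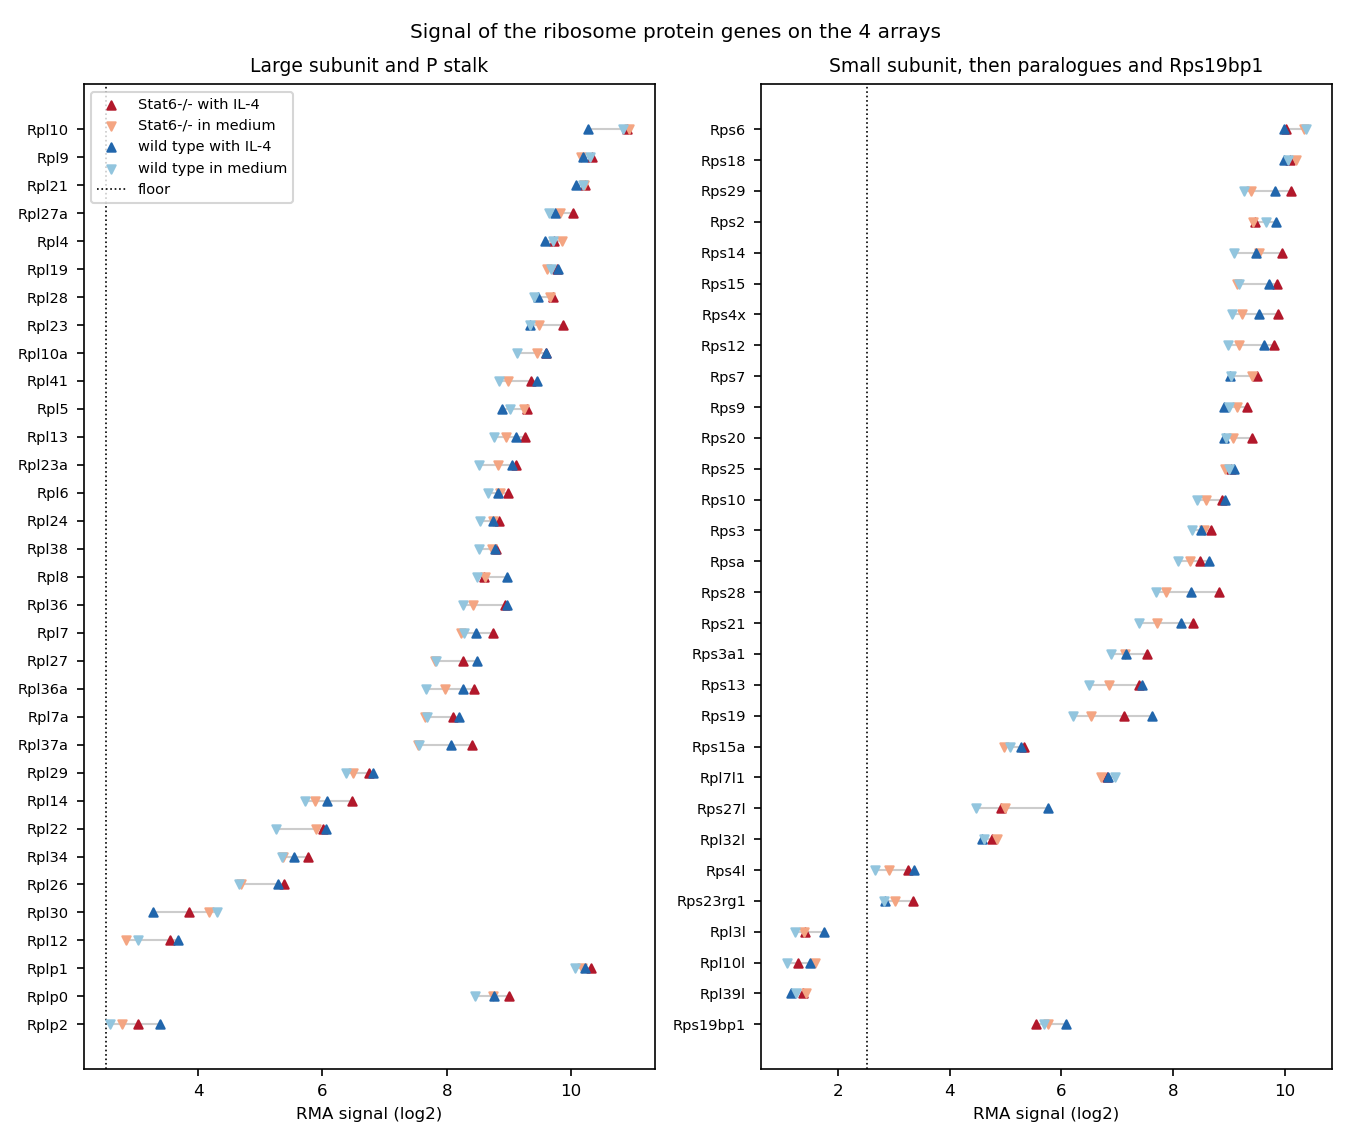
RMA signal (log2, x axis) of each ribosome protein gene (rows) on the 4 arrays: upward triangles are IL-4 arrays and downward triangles medium arrays, red and orange for Stat6-/- with IL-4 and in medium, dark and light blue for wild type with IL-4 and in medium, each 1 array; the grey line spans the 4 values and the dotted line is the floor. In most rows the upward triangles lie to the right of the downward ones, while Rpl30, Rpl10 and Rps6 have a wild-type IL-4 signal to the left.

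In Stat6-/- macrophages most ribosome protein genes had a higher signal with IL-4 than in medium, by a small amount. The median log2 difference was 0.26 over the 60 members, against -0.05 over the 10410 genes that reached the floor in this comparison. The difference was above 0 for 51 of 60, against 43.3% of all genes. No member passed the rule of size used for a change, which asks for a log2 step of 1 or more (2-fold) and for the brighter array to reach the floor. Of all genes, 0.24% passed it upward and 0.115% downward. A smaller step of 0.5 (1.41-fold) was reached upward by 14 members, against 4.43% of all genes, and downward by 0, against 5.05%.

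Rps28, a protein at the mRNA exit channel, stood at 8.82 with IL-4 and 7.87 in medium in Stat6-/- cells, the largest difference of the members there at 0.95. Rpl37a stood at 8.40 and 7.55 on those arrays (0.86), and Rpl12, a protein at the base of the P stalk, at 3.55 and 2.84 (0.71). Rps29 (0.71) and Rps15 (0.71), which sits near the decoding site, came next. The lowest differences were those of Rps6 (-0.32), the substrate of S6 kinases, Rpl30 (-0.31), Rps19bp1 (-0.21), Rpl4 (-0.12), which lines the exit tunnel, and Rps18 (-0.10). All of these stayed below the 2-fold rule.

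In wild-type macrophages the members also had mostly higher signals with IL-4, with more spread between genes. The median difference was 0.33, against -0.11 over 10282 genes, and 47 of 60 were above 0, against 41.1%. The 2-fold rule was passed by 3 members: Rps19 and Rps27l rose, against 2.96% of all genes upward, and Rpl30 fell, against 6.78% downward. A step of at least 0.5 was reached upward by 22 members, against 11.9% of all genes, and downward by 2, against 23.3%. The summed macrophage markers were lowest on the wild-type array with IL-4. All 8 had lower signals with IL-4 in wild type, by unlike amounts, from -2.74 (Cd14) to -0.11 (Cd68). Their part in the members' differences was not tested.

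Rps19, a small subunit protein needed for maturation of that subunit and the gene most often mutated in human Diamond-Blackfan anaemia, had signals of 7.12 with IL-4 and 6.53 in medium in Stat6-/- cells, and of 7.62 with IL-4 and 6.21 in medium in wild-type cells. Both IL-4 arrays thus lay above both medium arrays. Its difference was 0.60 in Stat6-/- cells and 1.40 (2.65-fold) in wild-type cells, and it has a single probeset.

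Rps27l, a paralogue of Rps27 known as a p53 target in human cells, had signals of 4.91 with IL-4 and 4.98 in medium in Stat6-/- cells, and of 5.76 with IL-4 and 4.46 in medium in wild-type cells. The wild-type array with IL-4 stood above the other 3, which lay within 0.52 of each other. The rise in wild type was 1.30 (2.46-fold), and its IL-4 effect in wild type exceeded that in Stat6-/- by 1.37. No other member passed the 2-fold rule in this contrast, which 3.2% of all genes passed upward and 5.77% downward.

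Rpl30 had signals of 3.86 with IL-4 and 4.17 in medium in Stat6-/- cells, and of 3.28 with IL-4 and 4.30 in medium in wild-type cells. Both IL-4 arrays lay below both medium arrays. It fell by 1.02 in wild type, to 0.493 of the medium value, and had a difference of -0.31 in Stat6-/- cells. Its only single-symbol probeset was dim, and the call in wild type was lost when the arrays were quantile-normalized again (-0.85) or the intensity trend was removed (-0.90). The call was also lost with the floor raised to the 75th percentile, 4.65, which both wild-type signals missed.

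After Rps19 and Rps27l, the largest differences in wild type were those of Rps13 (0.95), Rplp2 (0.81) and Rpl22 (0.81). Rps13 has 3 probesets, and 0.95 is the value of the brightest. Its dimmest gave 0.57 in wild type and 0.39 in Stat6-/- cells. The remaining probeset gave 0.83 in wild type and 0.54 in Stat6-/- cells. Rpl22, an RNA-binding protein of the large subunit studied for its role in lymphocyte development, stood at 6.01 and 5.91 in Stat6-/- cells with IL-4 and in medium, against 6.06 and 5.26 in wild-type cells with IL-4 and in medium. The wild-type array in medium was the low one, and the other 3 lay close together. At the lower end stood Rpl10 (-0.56), which joins the peptidyl transferase centre late in subunit maturation, Rps6 (-0.39), Rpl4 (-0.13) and Rpl5 (-0.13), a partner of the 5S RNA that can also bind Mdm2.

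Rpl10 had signals of 10.90 with IL-4 and 10.93 in medium in Stat6-/- cells, and of 10.28 with IL-4 and 10.84 in medium in wild-type cells. Here the wild-type array with IL-4 was the low one. Rps6 had signals of 10.03 with IL-4 and 10.35 in medium in Stat6-/- cells, and of 9.99 with IL-4 and 10.38 in medium in wild-type cells, so that both IL-4 arrays lay below both medium arrays in this gene, as in Rpl30.

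The other members with the brightest probesets varied little. Rpl9 stood at 10.34 and 10.16 in Stat6-/- cells with IL-4 and in medium, and at 10.20 and 10.31 in wild-type cells with IL-4 and in medium. Rpl21 stood at 10.23 and 10.21 in Stat6-/- cells with IL-4 and in medium, and at 10.07 and 10.20 in wild-type cells with IL-4 and in medium. Rps18, a small subunit head protein, stood at 10.10 and 10.19 in Stat6-/- cells with IL-4 and in medium, and at 9.99 and 10.06 in wild-type cells with IL-4 and in medium. In these 3 genes the 4 signals lay close together and no array stood apart.

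Among the members with the highest differences, Rps28 stood at 8.32 with IL-4 and 7.70 in medium in wild-type cells, beside the Stat6-/- signals given above, and Rpl37a at 8.08 with IL-4 and 7.55 in medium. Rps13 stood at 7.39 and 6.85 in Stat6-/- cells with IL-4 and in medium, and at 7.44 and 6.50 in wild-type cells with IL-4 and in medium. Both IL-4 arrays lay above both medium arrays in all 3. Rps29 stood at 10.11 and 9.40 in Stat6-/- cells with IL-4 and in medium, and at 9.83 and 9.26 in wild-type cells with IL-4 and in medium. Rps15 stood at 9.85 and 9.14 in Stat6-/- cells with IL-4 and in medium, and at 9.72 and 9.19 in wild-type cells with IL-4 and in medium. These 2 also had no overlap between IL-4 and medium arrays.

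The IL-4 differences of the 2 genotypes share no array. Across the 60 members the Pearson correlation of both differences was 0.57 and the Spearman correlation 0.61, against 0.27 and 0.29 across 10798 genes above the floor. Genes are not independent replicates, and these members share their normalization. With the paralogues and Rps19bp1 left out, the 54 genes of the ribosome gave 0.69 and 0.70. In 35 of 60 members both IL-4 arrays lay above both medium arrays, against 13% of all genes, and in 2 they lay below, against 27%. The difference was above 0 in both genotypes for 44 members, against 23.4% of all genes. A step of at least 0.5 in both genotypes was reached upward by 11 members, against 1.52% of all genes, and downward by 0, against 1.79%.

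**Figure D2:**
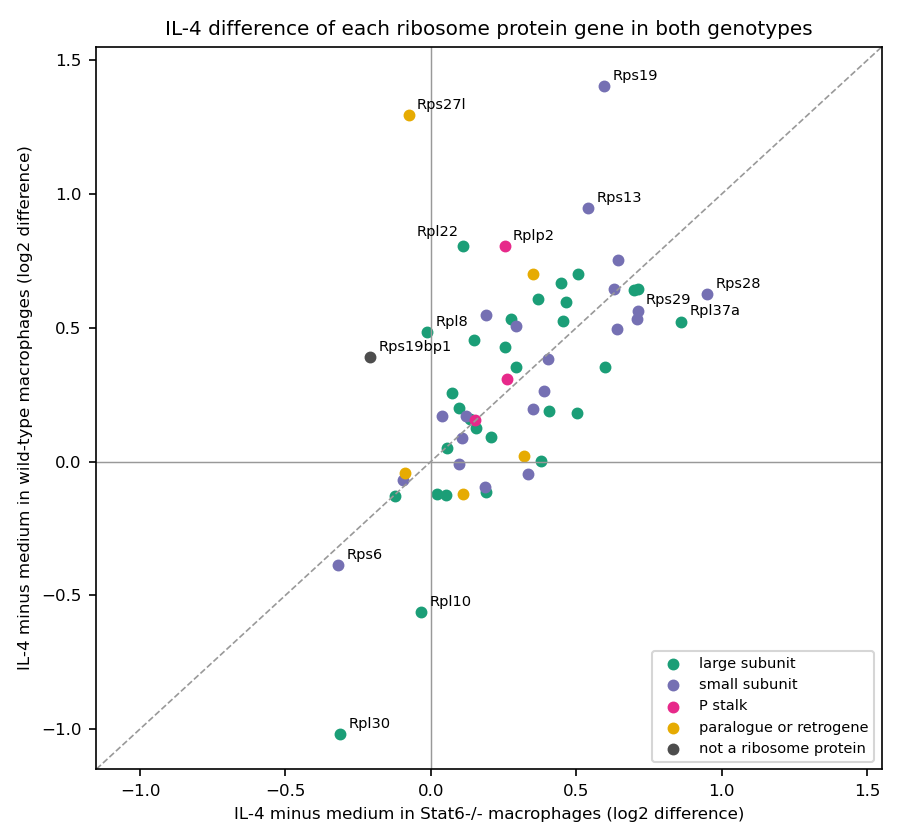
Log2 difference of IL-4 minus medium in Stat6-/- macrophages (x axis) and in wild-type macrophages (y axis) for the 60 members above the floor, coloured by role; the dashed line marks equal differences. Most points lie above 0 on both axes, Rps27l lies near 0 in Stat6-/- and at 1.30 in wild type, and Rpl30, Rps6 and Rpl10 lie at the lower left.

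Rps12, a protein of the beak of the small subunit, shows the shared pattern, with 9.80 and 9.17 in Stat6-/- cells with IL-4 and in medium, and 9.63 and 8.99 in wild-type cells with IL-4 and in medium. Its differences were 0.63 and 0.64 in Stat6-/- and wild type. Rps21 stood at 8.35 and 7.71 in Stat6-/- cells with IL-4 and in medium, and at 8.15 and 7.39 in wild-type cells with IL-4 and in medium. Rpl26, an exit tunnel protein that also binds the p53 mRNA in human cells, had differences of 0.70 in Stat6-/- and 0.64 in wild type, and Rps4x, an X-linked small subunit gene, of 0.64 and 0.49 in that order. In each of these 4 genes both IL-4 arrays lay above both medium arrays.

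The wild-type array in medium was the lowest of the 4 in 36 of 60 members, against 16.7% of all genes, and the Stat6-/- array with IL-4 was the highest in 34, against 15.2%. The lowest signal was on the Stat6-/- array with IL-4 in 1 member, against 25.3% of all genes, on the Stat6-/- array in medium in 12, against 22.6%, and on the wild-type array with IL-4 in 11, against 35.4%. The highest was on the Stat6-/- array in medium in 4, against 19.8%, on the wild-type array with IL-4 in 19, against 28.2%, and on the wild-type array in medium in 3, against 36.8%. Both Stat6-/- arrays lay above both wild-type arrays in 17 members, against 13.4%, and below them in 2, against 24.7%. The genotype comparisons use the same 4 arrays, so they give no independent support to the IL-4 comparisons. In medium, the median difference of Stat6-/- minus wild type was 0.16, against -0.11 over all genes. It was above 0 for 46 of 60, against 36.4%. A step of 0.5 was reached upward by 2 members, Rpl22 (0.65) and Rps27l (0.52), against 4.55% of all genes, and downward by 0, against 11.8%. Rps14 (0.45), Rps7 (0.38) and Rps13 (0.35) came next, and Rpl7l1 (-0.25), Rps2 (-0.24), Rpl12 (-0.19), Rpl9 (-0.16) and Rpl30 (-0.13) were lowest.

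With IL-4, the median difference of Stat6-/- minus wild type was 0.14, against 0.00 over all genes (-0.0001), and 40 of 60 members were above 0, against 49.6%. A step of 0.5 was reached upward by Rpl10 (0.62), Rpl30 (0.58), Rpl23 (0.53) and Rps20 (0.50), against 13.5% of all genes, and downward by Rps27l (-0.85) and Rps19bp1 (-0.53), against 15.3%. Rps23rg1 (0.49), Rps19 (-0.49), Rps2 (-0.37) and Rpl8 (-0.36) lay short of it. With the intensity trend removed, 1 member was higher and 1 lower by 0.5, against 13.7% and 14.9% of all genes, and the members' median was 0.07. No member passed the 2-fold rule in either genotype comparison, which 0.301% of all genes passed upward and 1.15% downward in medium, and 4.01% upward and 4.83% downward with IL-4.

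On the brightest probesets of Rps14, Rps7 and Rps2, among other members, both genotype differences were larger in size than both IL-4 differences. On the dimmer probeset of Rps14 the genotype difference in medium was 0.28, against an IL-4 difference of 0.35 in Stat6-/-. On the dimmest of Rps2 the genotype differences were -0.11 in medium and -0.21 with IL-4, against an IL-4 difference of 0.27 in wild type. Rps14, a protein of the small subunit platform, stood at 9.94 and 9.54 in Stat6-/- cells with IL-4 and in medium, and at 9.48 and 9.09 in wild-type cells with IL-4 and in medium, so that both Stat6-/- arrays were above both wild-type arrays. Rps7 stood at 9.51 and 9.41 in Stat6-/- cells with IL-4 and in medium, and at 9.02 and 9.03 in wild-type cells with IL-4 and in medium. Rps2 ran the other way, with 9.47 and 9.43 in Stat6-/- cells with IL-4 and in medium, and 9.84 and 9.67 in wild-type cells with IL-4 and in medium. For Rpl23, a large subunit protein that can bind Mdm2, the Stat6-/- array with IL-4 stood at 9.86, against 9.48 on the Stat6-/- array in medium, while both wild-type arrays stood at 9.33.

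By subunit, the 30 large subunit genes had a median IL-4 difference of 0.23 in Stat6-/- and 0.30 in wild type, with 6 and 10 of them higher by at least 0.5 in that order. The 21 small subunit genes had medians of 0.35 and 0.38 in the same order, with 8 and 9 higher by at least 0.5. Over all genes 4.43% in Stat6-/- and 11.9% in wild type were higher by that much. In the P stalk, Rplp0, its scaffold, had differences of 0.26 in Stat6-/- and 0.31 in wild type, Rplp1 of 0.15 and 0.16, and Rplp2 of 0.25 and 0.81. Rplp2 was read by a dim probeset, at 3.03 and 2.78 in Stat6-/- cells with IL-4 and in medium, and 3.38 and 2.58 in wild-type cells with IL-4 and in medium.

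By functional site, values were unlike at some sites and alike at others. At the peptidyl transferase centre, Rpl8 had differences of -0.01 in Stat6-/- and 0.48 in wild type, and Rpl10 of -0.03 and -0.56, so that they parted in wild type. Of 5 measured exit tunnel genes, 1 was higher by at least 0.5 in Stat6-/- (Rpl26), against 4.43% of all genes, and 3 in wild type (Rpl22, Rpl23a and Rpl26), against 11.9%. Rpl23a stood at 0.53 there on its brightest probeset and at 0.45 on the one among its own chromosome's probesets, while Rpl4 was at -0.12 and -0.13 and Rpl19 at 0.15 and 0.13 in Stat6-/- and wild type. At the mRNA entry, Rps3, a protein that also binds NF-kappaB, had 0.12 in Stat6-/- and 0.17 in wild type, and Rps2 had 0.04 and 0.17, so that this pair was alike. In the beak, Rps10 had 0.29 in Stat6-/- and 0.51 in wild type, Rps12 had 0.63 and 0.64, and Rps20 had 0.33 and -0.05. Rpsa, known also as the laminin receptor, stood at 8.49 and 8.30 in Stat6-/- cells with IL-4 and in medium, and 8.64 and 8.09 in wild-type cells with IL-4 and in medium. Of the 4 measured genes of a list of human Diamond-Blackfan anaemia genes, Rps19 rose in wild type, Rps10 stood at 0.51 there, Rps7 at -0.01 and Rpl5 at -0.13.

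The paralogues above the floor gave no common pattern. Rpl7l1, a relative of Rpl7 found in precursors of the large subunit, stood at 6.81 and 6.70 in Stat6-/- cells with IL-4 and in medium, and 6.83 and 6.95 in wild-type cells with IL-4 and in medium, while Rpl7 itself had differences of 0.50 in Stat6-/- and 0.18 in wild type. Rps4l had differences of 0.35 in Stat6-/- and 0.70 in wild type, at signals no higher than 3.37. Rps23rg1 had 0.32 and 0.02, and Rpl32l had -0.09 and -0.04, each for Stat6-/- and wild type. Rps19bp1 had -0.21 in Stat6-/- and 0.39 in wild type, with signals of 5.55 and 5.76 in Stat6-/- with IL-4 and in medium, and 6.08 and 5.69 in wild type with IL-4 and in medium.

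Genes that make or accompany ribosomes were compared with the members, from lists chosen with results of these data known. Of 47 ribosome assembly genes, which encode RNA polymerase I subunits, small nucleolar ribonucleoproteins and assembly factors, 45 were measured above the floor in wild type and 44 in Stat6-/-. Their median IL-4 difference was -0.02 in Stat6-/- and 0.45 in wild type. In wild type 4 rose and 0 fell past the 2-fold rule: Bysl (1.40), Rrp12 (1.29), Nop16 (1.28) and Grwd1 (1.04), factors of small or large subunit assembly, against 2.96% of all genes upward and 6.78% downward. Bysl was under the floor in Stat6-/-, with 2.20 and 2.35 with IL-4 and in medium, against 4.13 and 2.73 in wild type with IL-4 and in medium. In Stat6-/-, Gnl3 (0.55) was the only assembly gene higher by at least 0.5, against 4.43% of all genes. Polr1b (-0.92) and Pes1 (-0.59) were lower by that much there, against 5.05% of all genes. Nmd3 (-0.67), the export adaptor of the large subunit, was the only assembly gene lower by at least 0.5 in wild type, against 23.3% of all genes.

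Assembly genes and ribosome protein genes thus differed in how their IL-4 values compared between genotypes. The wild-type IL-4 difference minus that in Stat6-/- had a median of -0.00184 over the 60 members, with 30 above and 30 below 0, and a median of 0.43 over the 45 assembly genes, with 38 above 0, against -0.07 and 44% above 0 over all genes. Among the members it went with signal. Of the 25 with a mean signal of 9 or more, 18 were below 0 (median -0.07). That is near the share of all genes of such signal, 128 of 176 (median -0.23). Of the 29 members with a signal of 5 to 9, 20 were above 0 (median 0.11), against 1562 of 3982 of all genes (median -0.13). With the intensity trend removed, the median over the members was 0.19, against 0.006 over all genes, and 43 of 60 members were above 0. The share of all genes above 0 was not taken in that setting. A step of 0.5 was then reached upward by 7 members, against 15.1% of all genes, and downward by 1, against 16.6%. As deposited, the contrast was past 0.5 upward for 5 members and downward for 2, against 12.5% and 20.2% of all genes, and for 17 and 1 of the assembly genes. In medium the assembly genes had a median of -0.38 for Stat6-/- minus wild type, with 15 of 45 lower by at least 0.5, against 11.8% of all genes, where the ribosome protein genes stood at 0.16. With IL-4 these medians were -0.78, with 15 assembly genes lower past the 2-fold rule, against 4.83% of all genes, and 0.14. No test of these list differences was possible.

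**Figure D3:**
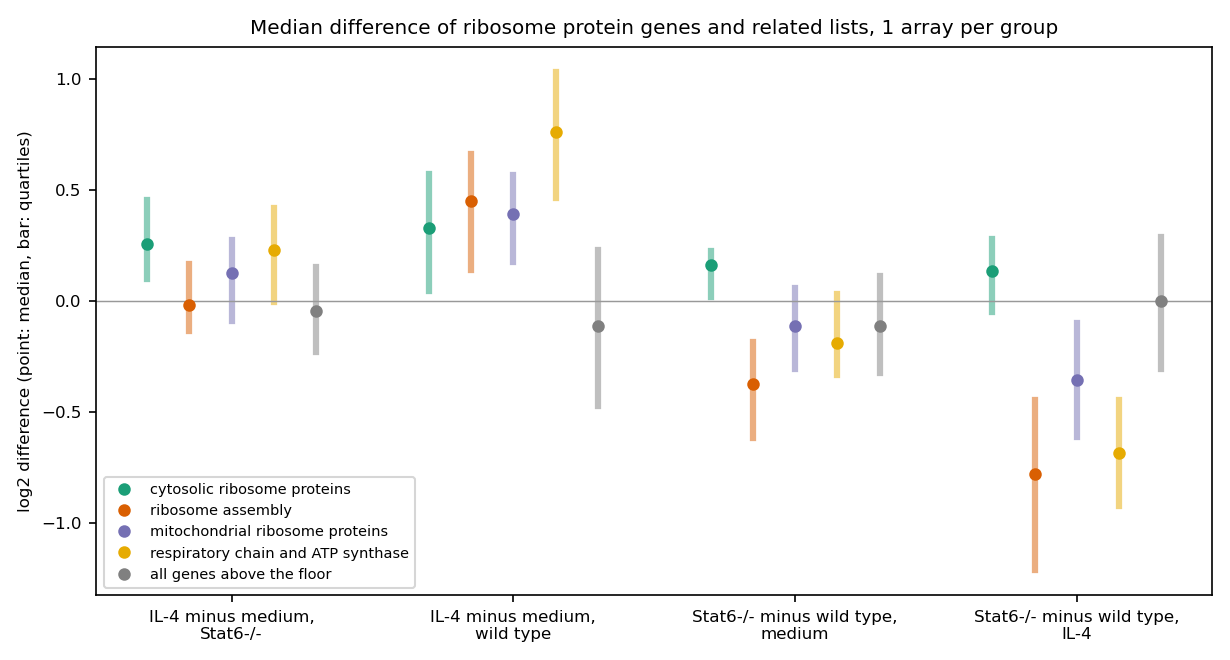
Median (points) and quartiles (bars) of log2 differences in the 4 comparisons of a pair of arrays for cytosolic ribosome proteins, ribosome assembly genes, mitochondrial ribosome proteins, respiratory chain and ATP synthase subunits, and all genes above the floor. Cytosolic ribosome proteins have similar IL-4 medians, 0.26 and 0.33, in Stat6-/- and wild type, while assembly genes have -0.02 and 0.45.

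Among regulators of ribosome synthesis, Myc, a transcription factor that drives ribosome genes, stood at 2.88 and 2.93 in Stat6-/- cells with IL-4 and in medium, and 5.95 and 3.57 in wild-type cells with IL-4 and in medium. It rose by 2.39 in wild type and was 3.08 lower in Stat6-/- than in wild type with IL-4. It was the only 1 of 8 regulators past the 2-fold rule. Of all genes, 2.96% passed that rule upward with IL-4 in wild type. For Stat6-/- minus wild type with IL-4, 4.83% passed it downward. Rptor (-0.84), a subunit of the mTOR complex, and Max (-0.55), the partner of Myc, were lower by at least 0.5 in wild type with IL-4. These 2 of 8 are near the share of all genes, 23.3%. Larp1, which binds TOP mRNAs, had differences of -0.11 in Stat6-/- and 0.47 in wild type.

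The 12 measured genes of a list of other TOP mRNAs had a median IL-4 difference of -0.14 in Stat6-/- and -0.20 in wild type. Over all genes the medians were -0.05 and -0.11 in that order. Naca (0.61 in Stat6-/- and 0.70 in wild type), a subunit of the nascent chain complex, was higher in both, and Eef1d (0.57) in wild type. Of all genes, 4.43% in Stat6-/- and 11.9% in wild type were higher by at least 0.5. Eif3h (-0.63), Eif4b (-0.55) and Eif3f (-0.54), initiation factors, were lower by at least 0.5 in wild type. These 3 of 12 are near the share of all genes, 23.3%. Eif4b stood at -0.43 in Stat6-/-. Fau, which encodes the small subunit protein that the symbol rule does not reach, had 0.09 in Stat6-/- and -0.03 in wild type.

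The 77 mitochondrial ribosome protein genes had medians of 0.12 in Stat6-/- and 0.39 in wild type, with 7 and 26 higher by at least 0.5 in that order, against 4.43% and 11.9% of all genes. Their largest difference in wild type was that of Mrps28 (1.22). The median of Stat6-/- minus wild type was -0.36 with IL-4, where the cytosolic members had 0.14. A list of 70 respiratory chain and ATP synthase genes was added after the values were seen. The 65 of them above the floor had medians of 0.23 in Stat6-/- and 0.76 in wild type. The members span a median of 3.31 kb in the RefSeq gene table, against 7.08 kb for the respiratory list, 12.6 kb for the assembly genes and 21.6 kb for all genes tested in wild type. With trends on signal and on gene span removed, the members' medians were 0.25 in Stat6-/- and 0.34 in wild type.

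The IL-4 difference also varied with a member's signal. The 25 members with a mean signal of 9 or more had medians of 0.15 in Stat6-/- and 0.09 in wild type, and the 29 with a signal of 5 to 9 had medians of 0.35 and 0.51 in that order. Over all genes, those of 9 or more had medians of -0.03 and -0.21, and those of 5 to 9 of -0.09 and -0.21, again in Stat6-/- and wild type. The Spearman correlation of signal and difference across the 60 members was -0.24 in Stat6-/- and -0.46 in wild type, against -0.12 and -0.21 across all genes. With the trend on signal removed, the medians were 0.32 in Stat6-/- and 0.53 in wild type.

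**Figure D4:**
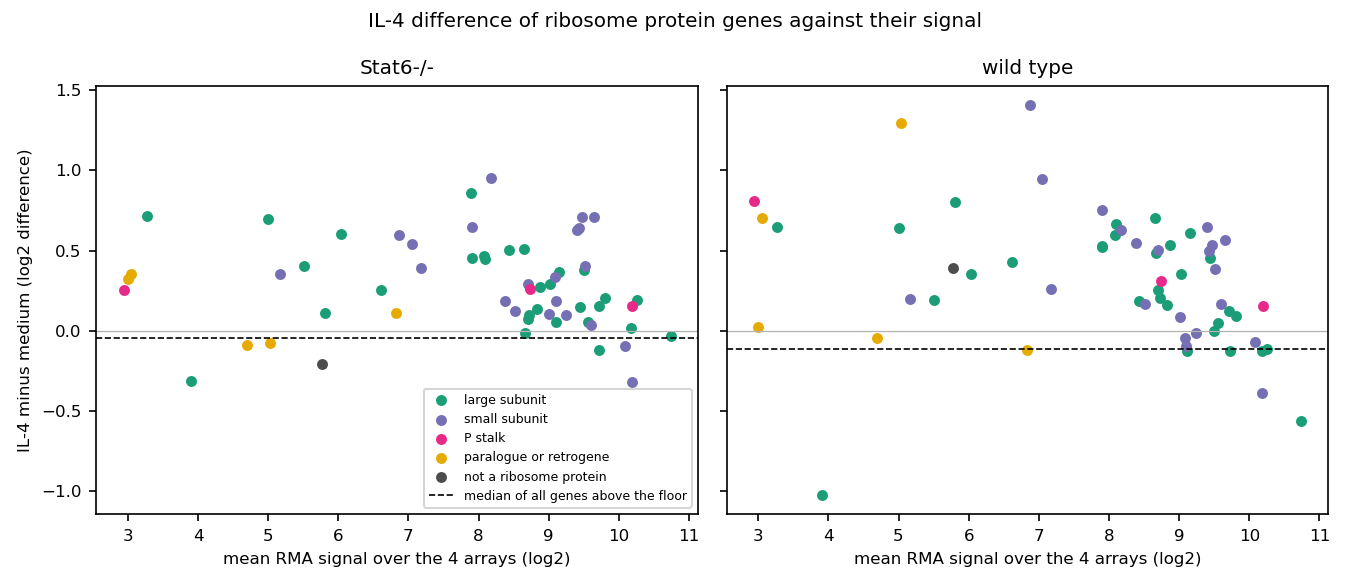
IL-4 minus medium (log2 difference, y axis) against the mean signal over the 4 arrays (log2, x axis) of the 60 members in Stat6-/- (left) and wild type (right), coloured by role; the dashed line is the median of all genes above the floor, at -0.05 and -0.11. Members with signals of 5 to 9 stand higher above the line than those of 9 or more.

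Ribosome protein genes have many processed pseudogenes, whose copies an array can fail to separate. The 63 members had 219 single-symbol probesets, up to 14 for 1 gene, and 39 members had more than 1. For 35 members the brightest probeset lay, by the numbering of its 10 nearest named neighbours, among probesets of the gene's own chromosome, and for 28 it did not, while 96.9% of all named probesets lay among their own. Probesets of the same gene counted as neighbours. The brightest probeset of Rps12, counted among the 35, lies in a run of Rps12 probesets that counted each other as neighbours. By number this run stands between the 2 probesets of the X-linked Rps4x that lay among their own chromosome's probesets, so its placing is doubtful. Another probeset of Rps12, outside the run, also lay among its own chromosome's probesets. It gave 0.75 in Stat6-/- and 0.72 in wild type. Restricting each gene to probesets among its own chromosome left 58 members, 55 of them above the floor, with median IL-4 differences of 0.28 in Stat6-/- and 0.32 in wild type. For Rps12 the probeset of the run was still used there.

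Probesets of 1 gene gave like differences. In 38 members with more than 1 distinct probeset, the median range of the IL-4 difference between probesets was 0.11 in Stat6-/- and 0.15 in wild type, and all probesets had 1 sign in 37 and 32 of the 38 in that order. Such probesets may share probes, so they are no replicates. The 9 probesets of Rpl36 lay between 0.44 and 0.53 in Stat6-/- and between 0.66 and 0.77 in wild type, and the 6 of Rpl10 between -0.05 and 0.01 and between -0.63 and -0.48. The 8 probesets of Rps6 were all below 0, from -0.52 to -0.19 in Stat6-/- and from -0.39 to -0.10 in wild type. The widest ranges were 0.57 for Rpsa in Stat6-/- and 0.56 for Rpl27a in wild type. The 5 probesets of Rpsa ran from 0.19 to 0.76 in Stat6-/- and from 0.55 to 1.06 in wild type, where the dimmest alone passed the 2-fold rule. The 1 probeset of Rpsa among its own chromosome's probesets gave 0.50 in Stat6-/- and 0.91 in wild type, against 0.19 and 0.55 for the brightest, which was used above.

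**Figure D5:**
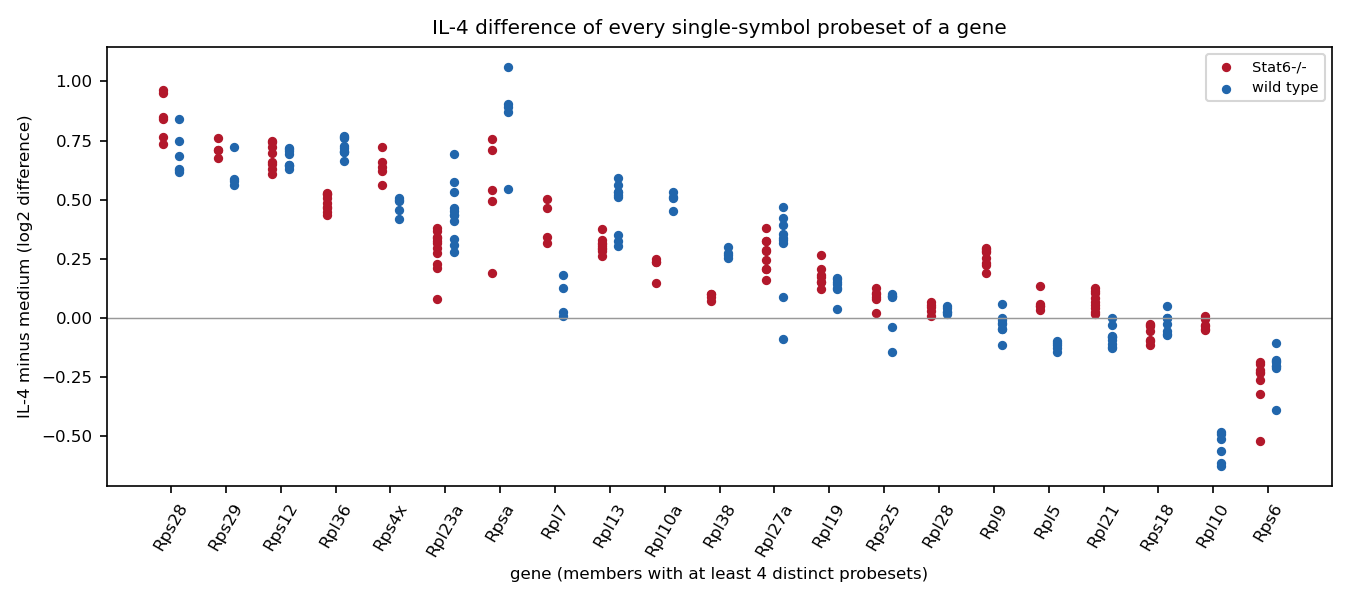
IL-4 minus medium (log2 difference, y axis) of every distinct single-symbol probeset of the members with at least 4 of them (x axis, ordered by the mean IL-4 difference of the brightest probeset), red for Stat6-/- and blue for wild type. Points of 1 gene lie close together, as for Rps12, Rpl36 and Rpl28, and are spread for Rpsa, Rpl23a and Rpl27a.

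The probesets set aside because they carry several symbols, at least 1 of them a ribosome protein symbol, were examined as a group. Of 239 such probesets, 232 distinct ones lay above the floor. Their median IL-4 difference was 0.26 in Stat6-/- and 0.31 in wild type, close to the medians of the members. The difference was above 0 for 210 and 178 in that order, against 43.3% and 41.1% of all genes. A step of 0.5 was reached upward by 56 and 70, against 4.43% and 11.9%, and downward by 0 and 11, against 5.05% and 23.3%. The wild-type difference minus the Stat6-/- one had a median of -0.02. These probesets can share probes with those of the members and add no independent measurement.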

How the data were processed

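The deposited table gives 1 log2 signal for each of 35557 probesets and 4 arrays. Per the submitters' processing notes, the authors made these values with RMA in Affymetrix Expression Console; versions, settings and build were not given in the sources used here, and the log2 scale was inferred from the value range. In the platform annotation 21789 probesets had 1 symbol, 1621 had several and 12147 were unnamed here. Each of 19938 genes was represented by its brightest single-symbol probeset. Of the single-symbol probesets 21695 matched a RefSeq gene (GRCm38.p6) by Entrez identifier, which changed 0 symbols. Differences were taken on the whole table with Python 3.11.15, pandas 2.3.3, numpy 2.4.6 and, for lowess trends, statsmodels 0.14.6 (fraction 0.3). The call rule, a difference of at least 1 with the higher array at or above 2.52, was tested on simulated data.

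With 1 array per group no test or p-value was computed. Precision is limited by the number of arrays. The members and lists were chosen with earlier results of these data known. Named were the 6 members with the highest and the 6 with the lowest signal, the 5 largest differences each way per comparison, members past 2-fold, paralogues, members of known role, and up to 3 genes each way from related lists. Others were chosen after their values were seen. RMA draws weak signals together and understates their differences. Another 9 settings were tried, and 3 more were added after seeing the data.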

Additional observations from a re-analysis of the deposited data

Results flagged for a closer look

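In 3 members the IL-4 difference ran one way in Stat6-/- and the other way in wild type, by at least 0.1 in each. With 1 array per group the difference between genotypes was not tested. Rps19bp1, which is no ribosome protein, had -0.21 in Stat6-/- and 0.39 in wild type, a difference of 0.60 (wild type minus Stat6-/-). Rpl9 had 0.19 and -0.11, a difference of -0.30, and Rpl7l1 had 0.11 and -0.12, a difference of -0.23, each for Stat6-/- and wild type. The sign of Rpl9 in wild type rests on its brightest probeset, which is not among probesets of its own chromosome. The other 7 lay between -0.05 and 0.06 there, with -0.02 for the one among its own chromosome's probesets, so that none of them reached 0.1 in wild type.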

How the results depend on the processing

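No paired analysis was possible because each group has 1 array. Over 12 alternatives the members' median IL-4 difference ran from 0.23 to 0.32 in Stat6-/- and from 0.31 to 0.53 in wild type, above the median of all genes in each. For Stat6-/- minus wild type it ran from 0.10 to 0.29 in medium and from 0.07 to 0.14 with IL-4. Quantile normalization applied again moved the median of all genes in wild type with IL-4 from -0.11 to 0.02, and members then stood 0.35 above it, against 0.44 as deposited. Of all genes there, 15.8% were then higher and 16.5% lower by 0.5, against 11.9% and 23.3% as deposited; for genotype in medium it was 6.66% and 6.65%, against 4.55% and 11.8%. Removing the intensity trend gave medians of 0.53 for IL-4 in wild type, 0.29 for genotype in medium and 0.19 for the difference of IL-4 effects. It put 1 member past 2-fold in Stat6-/- (Rps28, 1.03), where as deposited 0.24% of all genes passed upward. For genotype with IL-4, 2 members were past 0.5, against 13.7% of all genes higher and 14.9% lower. For genotype in medium 5 were past 0.5, all higher, against 5.62% of all genes higher and 7.71% lower. The count for genotype in medium was 4 with quantile normalization, at the shares given above. With arrays shifted to one median it was 1, against 3.17% of all genes higher and 16% lower. Without paralogues it was 1, at the shares as deposited. Leaving out paralogues also took the count past 2-fold for the difference of IL-4 effects to 0. The dimmest probeset of each gene gave 5 members past 2-fold in wild type, Rpsa (1.06) among them. As deposited, 2.96% of all genes passed upward there and 6.78% downward. The call of Rpl30 was lost with quantile normalization (-0.85), without the intensity trend (-0.90) and with the floor at the 75th percentile. Of the 36 named members, no difference past 2-fold changed sign. The causes were not tested.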
